A study of Homo sapiens with 6 samples.

Results

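The MYC, MAX and MLX network is a set of basic helix-loop-helix leucine zipper transcription factors that bind DNA as pairs. Its 10 genes here were MYC, MAX, MNT, MXD1, MXD3, MXD4, MXI1, MLX, MLXIP and MLXIPL. A member was taken as the probe set whose platform annotation gives that symbol, and all 10 genes were found, each with 1 probe set, among 18404 named genes. The arrays came from MDA-MB-231, a widely used human cell line derived from triple-negative breast cancer, grown in 10 mM fructose or in 25 mM glucose. There were 3 arrays for each sugar, with total RNA of a separate culture on each, adapted to its sugar for 25 days. RNA was taken at about 70% confluency, about 24 hours after fresh medium. The sugar, its concentration and the lack of glucose in the fructose medium differed together and cannot be told apart. The submitters label the fructose cultures non-glycolytic and the glucose cultures glycolytic. A single cell line was used, so the values describe that line.

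MYC pairs with MAX on the DNA sequence called the E-box and activates genes of growth and metabolism. MAX also pairs with MNT and with the MXD proteins, of which MXI1 is one, and these pairs recruit SIN3 corepressors to the same sites. In the parallel branch MLX pairs with MLXIP, better known as MondoA, and with MLXIPL, better known as ChREBP. MondoA and ChREBP respond to phosphorylated hexoses, and TXNIP and ARRDC4 are their best known targets in cultured cells. Most regulation of these factors acts on the proteins, through stability, location and partner choice, which an RNA array does not measure.

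DNA of the kind that the network reads is shown first. Windows ran from 250 bases before to 50 bases after each RefSeq gene start (GRCh38.p14) and were searched on both strands for the E-box CACGTG and for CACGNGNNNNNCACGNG, a pair of E-box-like sites set apart by 5 bases. The second motif was written with the known carbohydrate response element of TXNIP in mind, so its match in that gene was fixed beforehand. The stretches are printed 5′ to 3′ on the strand of the gene, and capitals mark the E-box or the paired sites.
TXNIP, chr1:145996621-145996697, minus strand: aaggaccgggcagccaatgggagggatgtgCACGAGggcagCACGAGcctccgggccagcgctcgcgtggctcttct
ARRDC4, chr15:97960463-97960528, plus strand: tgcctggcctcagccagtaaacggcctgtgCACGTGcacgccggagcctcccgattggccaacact
MLX, chr17:42567020-42567085, plus strand: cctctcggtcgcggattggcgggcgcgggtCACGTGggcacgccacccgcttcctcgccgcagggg
MNT, chr17:2401218-2401283, minus strand: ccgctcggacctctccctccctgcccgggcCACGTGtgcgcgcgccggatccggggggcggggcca
MXD4, chr4:2262312-2262359, minus strand: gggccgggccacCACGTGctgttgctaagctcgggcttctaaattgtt
The paired sites of TXNIP lay from -88 to -72 relative to the gene start. The E-box lay from -210 to -205 in ARRDC4, from -50 to -45 in MLX, from -193 to -188 in MNT and from -238 to -233 in MXD4. The members had 12 windows, of 9 genes, since no window of MYC was used here. Of these 12 windows 3 held an E-box, and 7.26% of all 35116 windows did. The paired motif was in 20 windows, or 0.0570% of them, and in none of the members'. These matches describe letters in a window and do not show binding.

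Across the 28230 tested probe sets 1 passed limma's test at an adjusted p of 0.05, which is 0.00354%, and it was TXNIP. None of the 10 members passed. At an unadjusted p under 0.05, where 13.1% of all probe sets stood, 4 of the 10 did, all with higher means in fructose (7.65% of all probe sets). The arrays of the sugars did not overlap for those same members, MYC, MXD1, MXD4 and MLXIP, against 20.2% of all probe sets without overlap. Fructose was higher without overlap for 11.4% of all probe sets. Bright probe sets, the 14115 above the median, included 9 of the 10 members. Among the bright probe sets 28.7% did not overlap. In a fit of bright probe sets alone 3108 of the 14115 had an unadjusted limma p under 0.05. MYC, MXD1, MXD4, MLXIP and MNT were among them. The related lists below also held mostly bright probe sets, so shares of all probe sets at this p may be too low a yardstick for them. Bright were 33 of 34 measured MYC-activated targets, 16 of 16 MYC cofactors and 16 of 16 genes of MYC protein turnover. So were 14 of 14 corepressor subunits, 15 of 19 other E-box factors, 14 of 20 MondoA and ChREBP targets and 8 of 12 MYC-repressed targets. Of the 10 members, 8 had a higher mean in fructose, against 56.2% of all probe sets, and their median log2 difference was 0.17 beside 0.021 for all probe sets. The members were named with results of these arrays known, so their counts are given as a description.

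**Figure D1:**
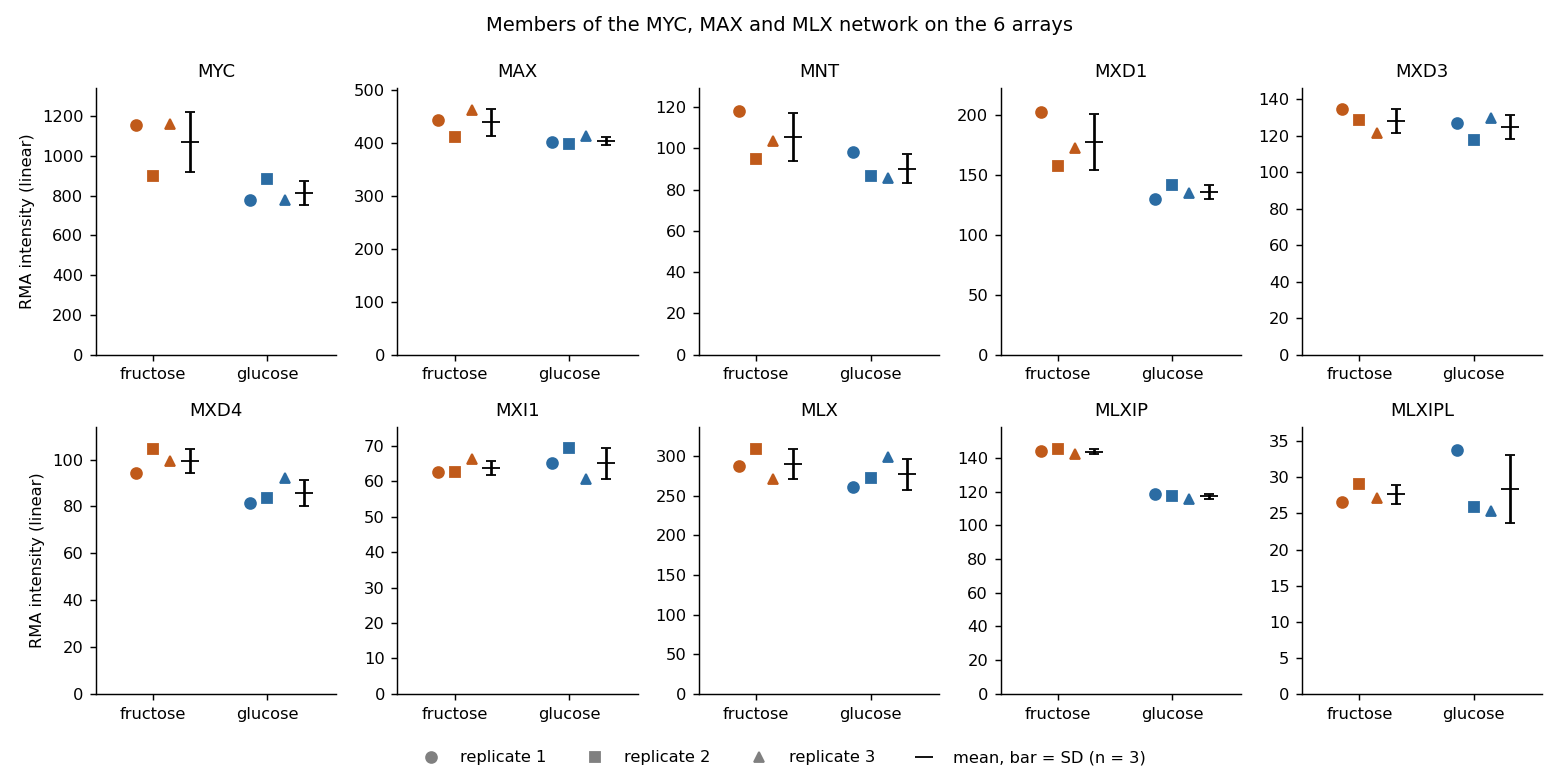
RMA intensity on a linear scale (vertical axis, from 0) of the 10 members on each array, fructose left of glucose, with the mean and SD of 3 arrays beside the points. MLXIP has the tightest groups relative to their distance, with 142 to 145 in fructose and 116 to 119 in glucose, and the MYC value of fructose replicate 2 (896) lies next to that of glucose replicate 2 (882).

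MYC, the activator of the network, had intensities of 1153, 896 and 1161 in fructose and 778, 882 and 780 in glucose. Its fructose arrays were all above the glucose arrays, but the lowest of them stood only just above the highest glucose value. The mean was 1070 ± 150 in fructose and 813 ± 59.5 in glucose (SD, n = 3 each). The log2 difference was 0.39 (SE 0.12, 95% interval 0.11 to 0.67, limma adjusted p = 0.26), a 1.31-fold higher level in fructose. Its size depended on fructose replicate 2, the array that lay nearest to glucose, and without that array the difference was 0.51 (limma adjusted p = 0.16). With any other array left out it ran from 0.32 to 0.45.

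MAX, the shared partner of MYC and of the repressors, had intensities of 443, 411 and 461 in fructose and 401, 397 and 413 in glucose. Fructose replicate 2 lay inside the range of the glucose arrays. The difference was 0.12 (SE 0.071, 95% interval -0.051 to 0.29, limma adjusted p = 0.53), so levels in fructose above 1.22-fold or below 0.966-fold of those in glucose lay outside the interval.

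Among the repressors that pair with MAX, MXD1 differed most between the sugars. MXD1, known for its appearance as cells leave the cycle and differentiate, had intensities of 203, 157 and 172 in fructose and 130, 142 and 135 in glucose. All fructose arrays were above all glucose arrays. Its means were 177 ± 23.3 in fructose and 136 ± 5.86 in glucose (SD, n = 3 each), and the fructose arrays were spread more widely. The log2 difference of 0.38 (SE 0.10, 95% interval 0.13 to 0.63, limma adjusted p = 0.23) was about that of MYC. Leaving out fructose replicate 1, the highest array, gave 0.28, and leaving out fructose replicate 2, the lowest of the fructose arrays, gave 0.46.

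MXD4, a further MXD repressor of differentiating cells, had intensities of 94.3, 104 and 99.3 in fructose and 81.5, 83.5 and 92.2 in glucose. The lowest fructose value was just above the highest glucose value. The difference was 0.21 (SE 0.079, 95% interval 0.027 to 0.40, limma adjusted p = 0.33), and after each array was centred on its median the groups overlapped. MNT, the most broadly expressed of the repressors and a direct counterpart of MYC, had intensities of 118, 94.9 and 104 in fructose and 98.4, 86.4 and 85.7 in glucose. Fructose replicate 2 was below glucose replicate 1, and the difference was 0.23 (SE 0.10, 95% interval -0.019 to 0.47, limma adjusted p = 0.41). Without fructose replicate 1 it was 0.14.

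The other repressors showed no separation of the sugars. MXD3, which is linked to the S phase of cycling cells, had intensities of 134, 129 and 121 in fructose and 127, 118 and 130 in glucose. MXI1, also called MXD2 and known as a repressor of MYC activity, had 62.8, 62.8 and 66.2 in fructose and 65.1, 69.4 and 60.7 in glucose. Both sets of arrays were interleaved. The MXD3 difference was 0.039 (95% interval -0.14 to 0.22, limma adjusted p = 0.87) and the MXI1 difference was -0.024 (95% interval -0.20 to 0.15, limma adjusted p = 0.92). With glucose replicate 2 left out these values took the opposite sign, at -0.0025 for MXD3 and 0.023 for MXI1.

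Among the repressors MXD1, MXD4 and MNT, which are known to pair with MLX as well as with MAX, had differences of 0.38, 0.21 and 0.23. MXD3 and MXI1, for which MAX is the known partner, had 0.039 and -0.024. This grouping was made after the values were seen and was not tested.

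**Figure D2:**
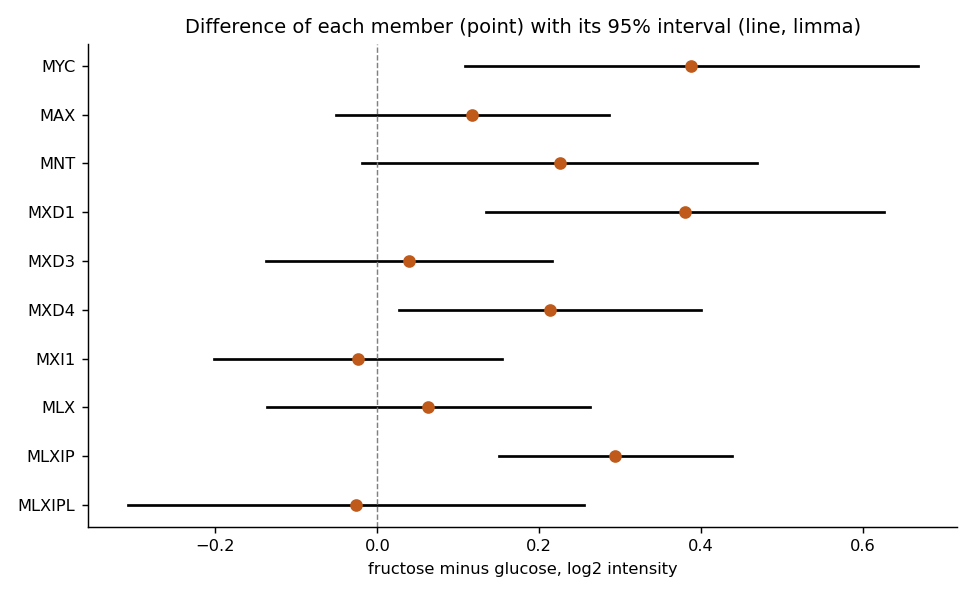
Log2 difference, fructose minus glucose (horizontal axis), of each member with its 95% interval from limma. The intervals of MYC, MXD1, MXD4 and MLXIP lie above 0, and those of the other 6 members include it.

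In the hexose-responsive branch the partner MLX did not separate the sugars. It had intensities of 288, 309 and 271 in fructose and 261, 272 and 299 in glucose, with overlapping groups. The difference was 0.063 (SE 0.085, 95% interval -0.14 to 0.26, limma adjusted p = 0.80). With an array left out it ran from 0.014, without fructose replicate 2, to 0.12, without glucose replicate 3.

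MLXIP, which encodes MondoA, had the smallest p of the 10 members. Its intensities were 143.8, 145.1 and 142.1 in fructose and 118.8, 117.1 and 115.6 in glucose. The groups were far apart for their spread, at 144 ± 1.5 in fructose and 117 ± 1.6 in glucose (SD, n = 3 each). The log2 difference was 0.29 (SE 0.061, 95% interval 0.15 to 0.44), a 1.23-fold higher level in fructose, with an unadjusted limma p of 0.0019 and an adjusted p of 0.17. With any array left out the difference stayed between 0.28 and 0.30. MLXIP passed the adjusted threshold in 2 of 14 alternative treatments. With an intensity trend and robust variances its limma adjusted p was 0.049, in a fit that called 473 probe sets (1.68%, or 0.914% with higher levels in fructose). Among bright probe sets alone it was 0.038, in a fit that called 325 (2.3%, or 1.3% with higher levels in fructose). In each of these fits it was the 1 member called.

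MLXIPL, which encodes ChREBP, the form best known from liver and fat, was dim. Its intensities were 26.6, 29.1 and 27.1 in fructose and 33.7, 25.9 and 25.4 in glucose, and its mean log2 value was below the median of 5.01 of all tested probe sets. Glucose replicate 1 was the highest of the 6 arrays, and the groups overlapped. The difference was -0.026 (95% interval -0.31 to 0.26, limma adjusted p = 0.95) and it was 0.11 without glucose replicate 1. Levels in fructose above 1.19-fold or below 0.807-fold of those in glucose lay outside the interval.

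**Figure D3:**
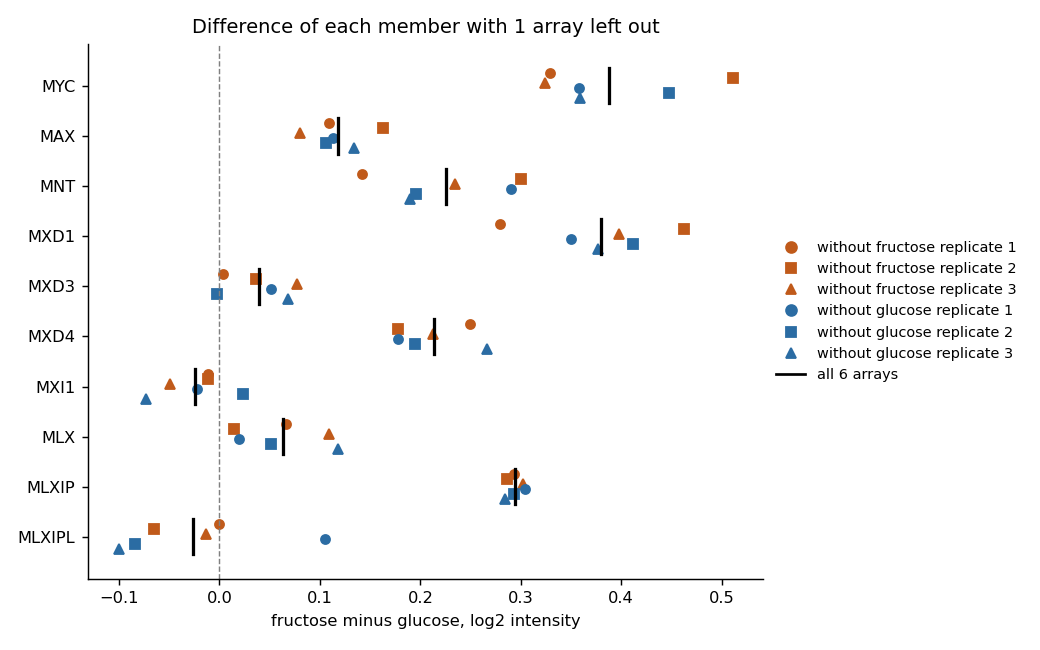
Log2 difference, fructose minus glucose (horizontal axis), of each member with all 6 arrays (black bar) and with each array left out (points, coloured by the sugar of the array left out). MLXIP stays between 0.28 and 0.30, while MYC reaches 0.51 without fructose replicate 2 and MLXIPL moves to 0.11 without glucose replicate 1.

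The targets of the MLX branch had differences of both signs. TXNIP, which restrains glucose uptake and carries the paired sites printed above, had intensities of 107, 122 and 136 in fructose and 1639, 1781 and 1656 in glucose. Every fructose array was far below every glucose array. It fell by 3.80 on the log2 scale in fructose (SE 0.099, limma adjusted p = 4.70e-05). ARRDC4, its glucose-responsive paralog, was dim at 14.2, 12.3 and 13.6 in fructose and 21.4, 28.1 and 16.1 in glucose. Its groups did not overlap, and it differed by -0.67 (SE 0.19, limma adjusted p = 0.23). KLF10, a repressor that responds to glucose and to TGF-beta, had 126, 117 and 113 in fructose and 142, 158 and 149 in glucose, a difference of -0.33 (SE 0.078, limma adjusted p = 0.19).

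Some genes of the same list had higher means in fructose. FASN, the fatty acid synthase, had intensities of 211, 220 and 196 in fructose and 153, 152 and 166 in glucose, and LPIN1, a phosphatidate phosphatase, had 282, 303 and 283 in fructose and 228, 233 and 228 in glucose. Neither set of arrays overlapped between the sugars. FASN differed by 0.41 (SE 0.077, limma adjusted p = 0.15) and LPIN1 by 0.33 (SE 0.066, limma adjusted p = 0.16). Both genes are also targets of SREBP factors. Further lipid genes of the list were picked once the values were known. ACLY differed by 0.26 (limma adjusted p = 0.24) and PNPLA3 by 0.26 (limma adjusted p = 0.42), both without overlap of the sugars. The differences were smaller for SCD (0.063, also without overlap), ACACA (0.038), ELOVL6 (-0.053) and GPD1 (-0.054). Over the 20 measured targets of MondoA and ChREBP, 1 fell and 0 rose past the threshold, 11 had higher and 9 had lower means in fructose, and the median was 0.048. Of all probe sets 56.2% had higher means in fructose, with a median of 0.021, so the split of this list was close to that of the array. At an unadjusted limma p under 0.05 there were 5 higher and 3 lower genes, beside 7.65% and 5.43% of all probe sets. MLXIP and its best known targets had differences of unlike sign, at 0.29 for the factor and -3.80 and -0.67 for TXNIP and ARRDC4.

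**Figure D4:**
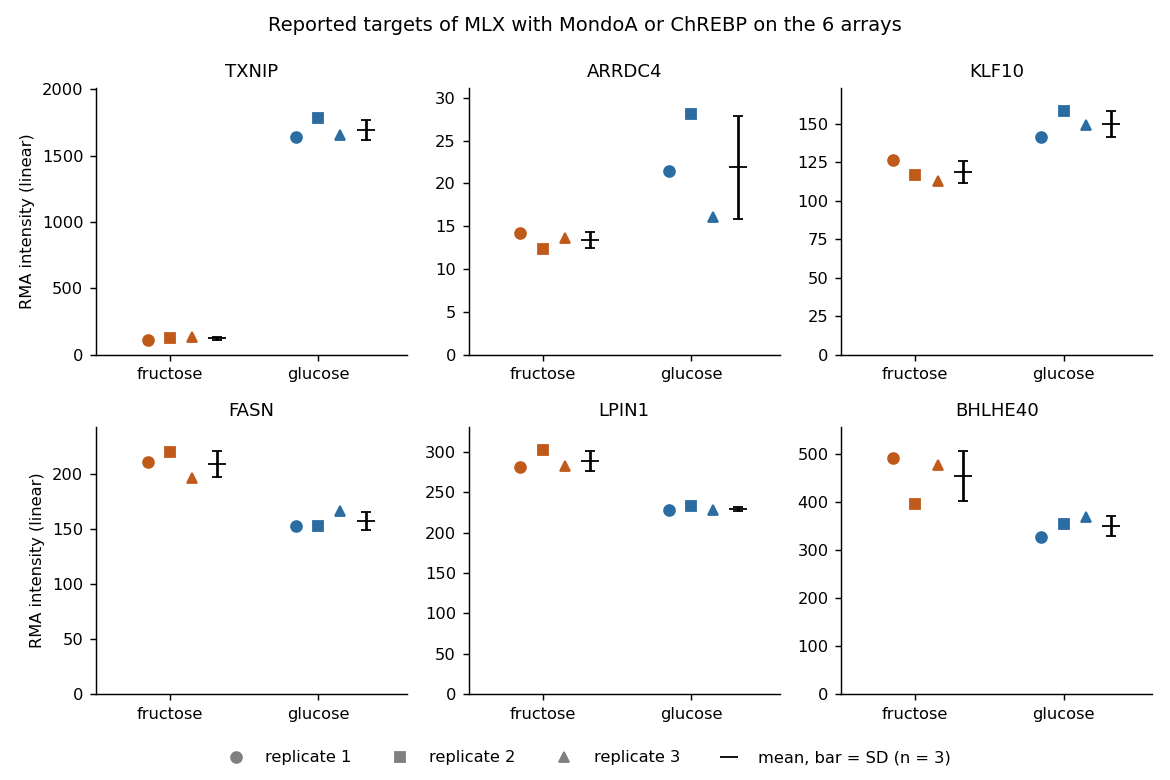
RMA intensity on a linear scale (vertical axis, from 0) of 6 reported MondoA or ChREBP targets on each array, fructose left of glucose, with the mean and SD of 3 arrays beside the points. TXNIP, ARRDC4 and KLF10 are lower on all fructose arrays than on all glucose arrays, and FASN, LPIN1 and BHLHE40 are higher on all of them.

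Genes that MYC is known to activate had mostly lower means in fructose, opposite in sign to MYC itself. Of the 34 measured, 0 rose and 0 fell past the threshold, 24 were lower and 10 higher, where 43.8% of all probe sets were lower, and the median was -0.092 beside 0.021 for all probe sets. At an unadjusted limma p under 0.05 there were 4 lower and 3 higher genes, where 5.43% of all probe sets were lower and 7.65% higher. Bright probe sets made up 33 of the 34, and 3108 of 14115 bright ones had such a p in their own fit. The member with the smallest p was CCND2, which encodes cyclin D2. It had intensities of 108, 77.8 and 85.7 in fructose and 51.2, 53.2 and 51.3 in glucose, a difference of 0.79 (SE 0.12, limma adjusted p = 0.13), against the direction of most of the list. SLC7A5, an amino acid transporter, differed by 0.28 and SHMT2, the mitochondrial serine hydroxymethyltransferase, by 0.25. PPAT, the first enzyme of purine synthesis, differed by -0.24. The median of the list was between -0.10 and -0.049 with an array left out, and the latter value came without fructose replicate 3.

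Genes that MYC is known to repress had a median of 0.031 over 12 genes, beside 0.021 for all probe sets, and 0 rose and 0 fell past the threshold. At an unadjusted limma p under 0.05 there were 2 higher and 1 lower, where 7.65% of all probe sets were higher and 5.43% lower. CDKN1A, the p21 inhibitor of cyclin-dependent kinases, had 158, 157 and 150 in fructose and 117, 115 and 133 in glucose. The groups did not overlap, and the difference was 0.35 (SE 0.080, limma adjusted p = 0.19). CDKN1B, the p27 inhibitor, differed by 0.19 without overlap. The integrin subunit ITGB4 differed by 0.24 (SE 0.13, limma adjusted p = 0.49), with overlapping groups. NDRG1, a stress-responsive gene, differed by -0.26.

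Proteins that set MYC stability were considered because the array reports only its RNA. Of 16 measured genes of MYC protein turnover, 0 rose and 0 fell past the threshold, and the median was 0.042, beside 0.021 for all probe sets. The list mixes proteins with opposite roles, such as ubiquitin ligase subunits and deubiquitinases, so its median gives no direction for MYC stability. At an unadjusted limma p under 0.05 there were 3 higher and 2 lower, where 7.65% of all probe sets were higher and 5.43% lower. GSK3B, a kinase that marks MYC for destruction, had the smallest p, with a difference of 0.28 (SE 0.067, limma adjusted p = 0.20). SKP2, a ubiquitin ligase subunit that acts on MYC and on p27, had intensities of 261, 310 and 246 in fructose and 358, 318 and 413 in glucose. Fructose replicate 2 and glucose replicate 2 were close together, and the difference was -0.41 (SE 0.13, limma adjusted p = 0.26). FBXO32, a further ubiquitin ligase subunit, differed by 0.43 (SE 0.15, limma adjusted p = 0.32), with overlapping groups. The deubiquitinase USP36 differed by 0.22 without overlap.

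The corepressor subunits that MNT and the MXD proteins recruit had mostly lower means in fructose. Of 14 measured SIN3 and NCOR subunits, 0 rose and 0 fell past the threshold, 11 had lower and 3 higher means in fructose (43.8% of all probe sets were lower), and the median was -0.047. At an unadjusted limma p under 0.05 there were 2 lower genes and 0 higher ones, beside 5.43% lower and 7.65% higher over all probe sets. HDAC2, a histone deacetylase of the SIN3 complex, had 668, 671 and 632 in fructose and 780, 789 and 744 in glucose, without overlap. It differed by -0.23 (SE 0.066, limma adjusted p = 0.24), the histone-binding subunit RBBP4 by -0.24, ARID4B by -0.18 and the scaffold SIN3A by -0.11. The median of this list was -0.032 without fructose replicate 3.

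Cofactors of MYC had a median of 0.041 over 16 genes, beside 0.021 for all probe sets, and 0 rose and 0 fell past the threshold. At an unadjusted limma p under 0.05 there were 3 higher and 1 lower, where 7.65% of all probe sets were higher and 5.43% lower. KAT2A, a histone acetyltransferase also called GCN5, had 216, 233 and 217 in fructose and 158, 178 and 177 in glucose, and differed by 0.38 (SE 0.079, limma adjusted p = 0.17). SMARCB1, a chromatin remodelling subunit that binds MYC, differed by 0.27, the acetyltransferase KAT5 by 0.26 and ACTL6A by -0.18. Leaving out fructose replicate 2 gave a median of 0.012, and leaving out fructose replicate 3 gave 0.070.

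Other factors that bind E-boxes or like sequences had mostly higher means in fructose. Of 19 genes, 0 rose and 0 fell past the threshold, 16 were higher and 3 lower (56.2% of all probe sets were higher), and the median was 0.11. At an unadjusted limma p under 0.05 there were 5 higher genes and 0 lower ones, beside 7.65% and 5.43% of all probe sets. NPAS2, a partner of the clock factor BMAL1, had 785, 705 and 750 in fructose and 590, 626 and 592 in glucose, a difference of 0.31 (SE 0.072, limma adjusted p = 0.19). BHLHE40, a circadian repressor that is also a MondoA and ChREBP target, differed by 0.37, TFE3, a factor for lysosomal genes, by 0.26 and USF1, a ubiquitous E-box factor, by 0.19.

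Some list genes that missed the threshold above passed it in the fits that called MLXIP. FASN, LPIN1, CCND2 and KAT2A, all higher in fructose, were called both with the intensity trend and robust variances and among bright probe sets alone. With the trend and robust variances NPAS2, GSK3B, SLC7A5 and ACLY, an acetyl-CoA producing enzyme, were also called as higher in fructose, and HDAC2 and NDRG1 as lower.

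**Figure D5:**
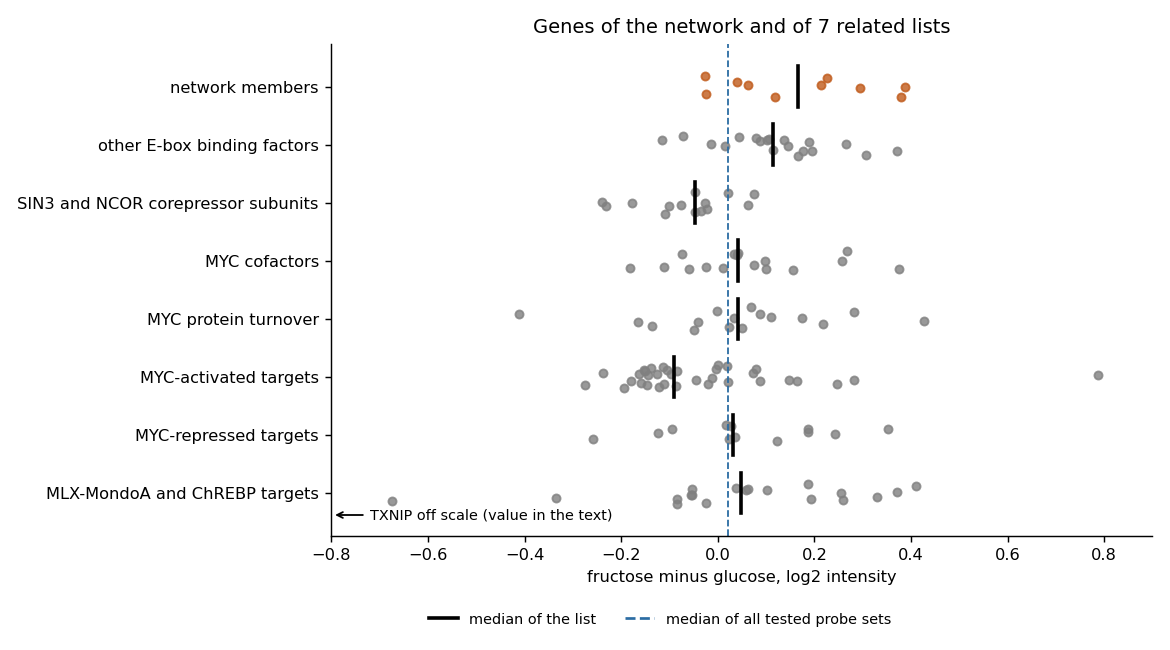
Log2 difference, fructose minus glucose (horizontal axis), of the 10 members and of the measured genes of 7 related lists, with the median of each list (black bar) and of all tested probe sets (dashed line, 0.021). The bars of the members (0.17) and of the other E-box factors (0.11) lie right of the dashed line, and those of the MYC-activated targets (-0.092) and the corepressors (-0.047) lie left of it.

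Genes with array patterns like those of MYC and MLXIP were found among 11058 other genes brighter than the median probe set, by the root mean square distance over the 6 arrays in log2 units after each gene was set to its glucose mean. The nearest to MYC were CREBRF (distance 0.038), SLFN5 (0.041), NEK8 (0.051), MKX (0.052) and XBP1 (0.053). In each of these 5 genes, as in MYC, fructose replicate 2 was the lowest of the fructose arrays and glucose replicate 2 the highest of the glucose arrays. The nearest to MLXIP were HMGCS1 (0.017), RAB32 (0.021), ZBTB38 (0.024), MYL9 (0.027) and PGP (0.027), each of which had little spread within a sugar. These genes were chosen for their likeness on the same arrays, so the shared order and the small spread follow from that choice. A small distance describes these 6 arrays only.

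The arrays had median intensities between 31.5 and 33.5 over the tested probe sets, and pairs of arrays of 1 sugar differed with an SD of 0.22 to 0.26 in log2 units. All 7 mesenchymal markers expected of MDA-MB-231 cells, VIM and CD44 among them, were brighter than at least 98.6% of probe sets. Markers of luminal breast cells (7 genes), leukocytes (4 measured genes) and fibroblasts (5 genes) had mean log2 values of at most 6.22 in fructose and 6.38 in glucose. Those highest values were of the luminal gene GATA3, which was brighter than 67.9% of probe sets. None of these markers passed limma's test, and 1, the luminal gene ERBB3, had an unadjusted p under 0.05. A lower level of an RNA in bulk cells and a smaller share of cells that make it cannot be told apart.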

How the data were processed

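Total RNA of 6 cultures was measured on 6 single-colour arrays. The deposited values are 1 intensity per probe set and array, for which the submitters' processing notes name RMA. Its version, program and filters are not given in the sources here. Values were above 0 and reached 7938 among tested probe sets, so they were read as linear, and log2 was taken with no offset. Of 32321 rows, 4091 with identifiers below the lowest one paired with a gene were taken as control probe sets and left out, which left 28230. The platform annotation names 1 gene for 19158 of them, several for 1388 and none for 7684. For each gene the probe set of highest mean log2 was kept.

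The fructose minus glucose difference was tested with limma 3.58.1 (R 4.3.3; lmFit and eBayes, two-sided, without covariates). The p-values were adjusted by Benjamini-Hochberg over all tested probe sets, at a threshold of 0.05. Precision is limited by the number of arrays, and the median SE was 0.095. Same-numbered cultures did not deviate together (correlations -0.026, -0.021 and -0.054), so the numbers were not taken as pairs. The fit was also run on simulated data, with planted changes larger than the difference of any member. That run does not show how well differences of the members' size are found.

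Named were all members, TXNIP, ARRDC4, up to 4 genes per list with the smallest p, and 5 genes nearest to MYC and to the member with the smallest p; exceptions are stated. Members and lists were chosen with earlier results of these data known. Promoter windows are RefSeq's (GRCh38.p14). Alternatives are given in the closing section.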

Additional observations from a re-analysis of the deposited data

How the results depend on the processing

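The 10 members were refitted under 14 alternatives: a replicate block, each array left out, repeated quantile normalization, centring on the array median, bright probe sets alone (where MLXIPL was not tested), array weights, an intensity trend with robust variances, no moderation, and the control probe sets kept. A mean over all probe sets of a gene bears on the lists alone, since each member has 1 probe set. The number of probe sets called, 1 in the reported fit, was 325 among bright probe sets, 473 with the trend and robust variances and 0 without moderation (3565 at an unadjusted p under 0.05), and the number of members called was 1 in the first 2 of these, MLXIP. The cause was not tested. With the replicate block 1 probe set and 0 members were called, and the MYC difference of 0.39 had a limma adjusted p of 0.43. The block changed no call, but at an unadjusted p of 0.05 it moved MXD4 (0.051, against 0.030 in the reported fit) and MNT (0.036, against 0.066). MYC, MXD1 and MLXIP kept an unadjusted p under 0.05 in all 14 alternatives, MXD4 in 8 and MNT in 6. With an array left out MXD3 ran from -0.0025 to 0.077, MXI1 from -0.073 to 0.023 and MLXIPL from -0.10 to 0.11, so the sign of these 3 was not settled. The 4 members without overlap became 3 after centring, where 17.6% of probe sets did not overlap, and 6 without fructose replicate 2 (33.3% of probe sets) or without glucose replicate 1 (29.5%). Centring moved list medians to 0.022 for MondoA and ChREBP targets, 0.015 for MYC cofactors, -0.12 for MYC-activated targets, 0.0055 for MYC-repressed targets, 0.016 for MYC protein turnover, 0.089 for other E-box factors and -0.073 for corepressors. Bright probe sets alone gave 0.082 for MondoA and ChREBP targets and 0.078 for MYC-repressed targets, and the mean of probe sets gave -0.074 for MYC-activated targets. With an array left out the medians ran from 0.031 to 0.053 for MondoA and ChREBP targets, 0.012 to 0.070 for MYC cofactors, -0.10 to -0.049 for MYC-activated targets, 0.037 to 0.072 for MYC-repressed targets (highest without glucose replicate 1), 0.033 to 0.067 for MYC protein turnover (highest without fructose replicate 3), 0.094 to 0.15 for other E-box factors and -0.066 to -0.032 for corepressors. No list median changed sign. The values of all probe sets beside which the lists were set also moved with scaling. Their median was -0.0043 after centring, with 48.7% higher in fructose. After repeated quantile normalization it was 0.0019, with 50.6% higher. Low signal limits MLXIPL and ARRDC4.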

Other observations

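The paired-site motif of TXNIP was looked up in the windows of all RefSeq genes. Of the 20 genes that hold it, 18 were measured, 1 of them (TXNIP) passed the test, and 11 had a higher mean in fructose. Of all named genes 56.5% had a higher mean in fructose. At an unadjusted p under 0.05 there were 1 higher and 4 lower genes, and TXNIP was 1 of the lower ones. Over all named genes these shares were 8.53% higher and 5.74% lower. The motif was written with TXNIP in mind, so the place of TXNIP in these counts was fixed beforehand. The median difference was 0.021, which is also the value for all tested probe sets. P4HA1, which hydroxylates collagen prolines, differed by -0.38 (SE 0.079, limma adjusted p = 0.17), HPF1, a cofactor of PARP enzymes in DNA damage, by -0.35 (SE 0.072, limma adjusted p = 0.17), and the nuclear transport GTPase RAN by -0.18 (SE 0.074, limma adjusted p = 0.37), all without overlap of the sugars. MYL5, a myosin light chain, differed by 0.26 (SE 0.086, limma adjusted p = 0.29). Over all named genes 10.0% were lower in fructose without overlap. The 4 genes named here were chosen after their values were seen.

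The E-box itself was in the windows of 2396 genes, of which 1557 were measured. Of these, 61.3% had a higher mean in fructose and the median was 0.036, beside 56.5% and 0.022 for all 18404 named genes. None of them passed limma's test, and at an unadjusted p under 0.05 there were 162 higher (10.4%) and 77 lower genes (4.95%), beside 8.53% and 5.74% of all named genes.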
